A study of Mus musculus with 30 samples.

Results

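The neutrophil-attracting CXC chemokines of the mouse and their main receptor were followed as 7 genes, Cxcl1, Cxcl2, Cxcl3, Cxcl5, Ppbp, Pf4 and Cxcr2. They were found as the array probes that carry one of these symbols as gene name, which gave 1 probe of 60 bases for each gene. Of the 7 genes, 6 entered the tests among 23265 genes in all. Cxcl2 did not, because its probe was well above background on 1 array of 30.

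The arrays were 1-colour Agilent arrays of total RNA from mouse aorta, in 10 groups of 3. B cell-deficient (uMT) mice and wild type (WT) mice were each sampled 7 and 42 days after periaortic 0.5 M CaCl2, a treatment that induces an aneurysm, and 7 and 42 days after a sham operation with saline. A further group of each genotype, called pre, had received neither. All groups carry the strain label C57BL/6, and every sample, the pre and sham samples included, carries the tissue label abdominal aortic aneurysm. Sex, age and pooling of animals are not given in the sources used here, and nothing states that replicates were separate animals, so p-values measure the spread between these samples. The uMT defect is inherited, so the aortas of all 5 uMT groups developed without mature B cells.

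CXC chemokines are small secreted proteins that guide leukocytes along a gradient. Those with an ELR motif before the first cysteines, which include the products of Cxcl1, Cxcl2, Cxcl3, Cxcl5 and, after cleavage, Ppbp, bind the receptor Cxcr2 on neutrophils and draw these cells out of the blood. Pf4 encodes platelet factor 4, which lacks that motif and is not a classical Cxcr2 ligand. It is stored with the Ppbp product in platelet granules, and macrophages of many tissues transcribe Pf4 as well. Tissue cells and macrophages transcribe Cxcl1, Cxcl2, Cxcl3 and Cxcl5 after inflammatory signals such as interleukin 1, largely through the transcription factor NF-kappaB.

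The 6 ligand probes lay on chromosome 5 within 144 kb of one another (mm9, forward strand), in the order Cxcl5, Ppbp, Pf4, Cxcl3, Cxcl1 and Cxcl2. The Cxcl5 probe was at chr5:91190490-91190549, the Cxcl3 probe at chr5:91216694-91216753 and the Cxcl2 probe at chr5:91334534-91334593. The Cxcr2 probe lay on chromosome 1 at chr1:74206886-74206945. No run of more than 7 bases was shared by any 2 of the 7 probes, although the genes are related.

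The promoters of 6 of the 7 genes were found in the RefSeq table of build GRCm38.p6. The 100 bases before the annotated start of 5 of them are shown so that the inducible ligands can be set beside the platelet-type ligands. Capitals mark GGGAATTTCCC, the longest run that Cxcl1, Cxcl2 and Cxcl3 share in these bases (11 bases), and TATAAA, the core of the element known as the TATA box. The shared run has the form of an NF-kappaB element, and this stretch of the promoter was examined because such elements were known there.
Cxcl1: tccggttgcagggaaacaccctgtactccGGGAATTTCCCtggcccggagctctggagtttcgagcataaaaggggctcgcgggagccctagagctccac
Cxcl2: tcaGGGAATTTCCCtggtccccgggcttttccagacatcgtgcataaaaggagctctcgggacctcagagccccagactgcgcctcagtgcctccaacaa
Cxcl3: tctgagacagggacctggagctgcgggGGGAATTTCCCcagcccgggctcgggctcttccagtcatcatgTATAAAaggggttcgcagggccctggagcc
Ppbp: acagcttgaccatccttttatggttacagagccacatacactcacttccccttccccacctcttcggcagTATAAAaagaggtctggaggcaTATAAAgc
Pf4: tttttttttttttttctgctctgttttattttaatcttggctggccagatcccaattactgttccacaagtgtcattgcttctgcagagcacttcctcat
These stretches are chr5:90891145-90891244 (Cxcl1), chr5:90903799-90903898 (Cxcl2), chr5:90786001-90786100 (Cxcl3), chr5:90768418-90768517 (Ppbp) and chr5:90772335-90772434 (Pf4), all on the forward strand of GRCm38.p6. The shared run was taken from Cxcl1, Cxcl2 and Cxcl3, so its presence in them was fixed in advance and its share is a description. Promoters were searched on both strands from 250 bases before to 50 bases after the start. Among 32544 mouse promoters of that length the shared run stood in 14, or 0.0430%. These letters were not in the windows of Ppbp, Pf4 or Cxcr2. For so rare a run that absence was likely beforehand, so it is a description too. A longer shared run of 13 bases lay after the start of Cxcl1, Cxcl2 and Cxcl3, in their transcribed part. TATAAA stood in Cxcl3 and, at 2 places, in Ppbp, against 13.6% of promoters. AGATAA, which factors of the GATA family can bind, stood 36 bases after the start of Pf4, against 11.2% of promoters. A match is a description of the letters, and binding of a factor was not measured.

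**Figure D1:**
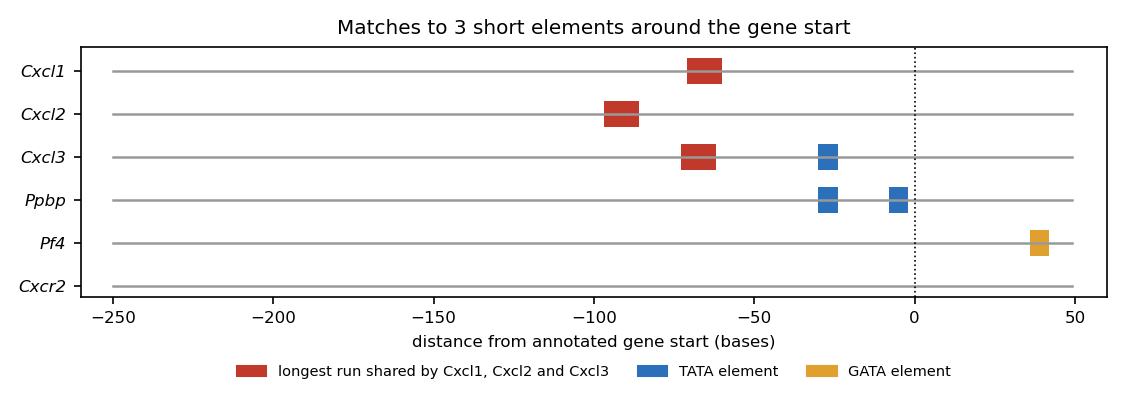
Positions of exact matches to the longest shared run, a TATA element and a GATA element in the promoters of 6 genes, from 250 bases before to 50 bases after the annotated start (x axis, bases), 1 line per gene. The shared run begins 71, 97 and 73 bases before the start of Cxcl1, Cxcl2 and Cxcl3, and no match stands on the line of Cxcr2.

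The signal of an array limits what could be measured. Levels are log2 of the scanner's processed signal minus the 75th percentile of the array, whose intensity ran between 36.1 and 428. Between 36.5% and 61.8% of probes were well above background on an array, and on 6 arrays under 50%. The lowest level that was well above background lay between -4.97 and -1.36 over the 30 arrays, so a probe at background sits higher on a dim array. The 36.5% belonged to WT sham day 42 replicate 2, which sat by itself on a slide, was scanned on another day than the rest, and had a mean r of 0.722 with its group mates over genes. No slide held both CaCl2 and sham arrays from uMT mice, so slide and treatment cannot be told apart there. In WT mice no slide held both at day 7, and 1 sham array shared the slide of the CaCl2 arrays at day 42. Through the WT sham arrays of day 42, which lay on several slides, a fixed slide block could be estimated for WT mice. All 6 uMT CaCl2 arrays lay on 1 slide, and so did all 6 WT CaCl2 arrays. The 10 contractile smooth muscle markers were above background on every array. At each time after CaCl2, 3 of 6 B cell markers were lower in uMT than in WT aortas. Of all genes, 0.219% and 1.31% were called there at days 7 and 42.

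After CaCl2, Cxcl3 and Cxcl5 were the members that rose most widely against sham. In uMT aortas, none of 6 tested members was called at day 7, where 2 had an unadjusted p under 0.05 (limma, Benjamini-Hochberg adjustment over all genes at 0.05), against 0.898% of all genes. At day 42 in uMT aortas 4 of 6 rose, Cxcl3, Cxcl5, Ppbp and Pf4, against 6.33% of all genes called in either direction. In WT aortas 3 of 6 rose at day 7, Cxcl3, Cxcl5 and Cxcr2, against 6.59% of all genes. At day 42 in WT aortas 2 of 6 rose, Cxcl3 and Cxcl5, against 10.4% of all genes. The median log2 difference of the 6 members was 1.28 at day 7 and 4.14 at day 42 in uMT aortas, and 3.08 and 2.15 in WT aortas. The median over all genes lay between -0.04 and 0.09. No member fell in any of these 4 comparisons. Cxcl3 and Cxcl5 passed the filter on dim probes only through CaCl2 groups, and Cxcr2 only through WT CaCl2 day 7, so these members had to differ and their counts are a description. Fewer cells of a type and less RNA per cell cannot be told apart in RNA of whole tissue.

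**Figure D2:**
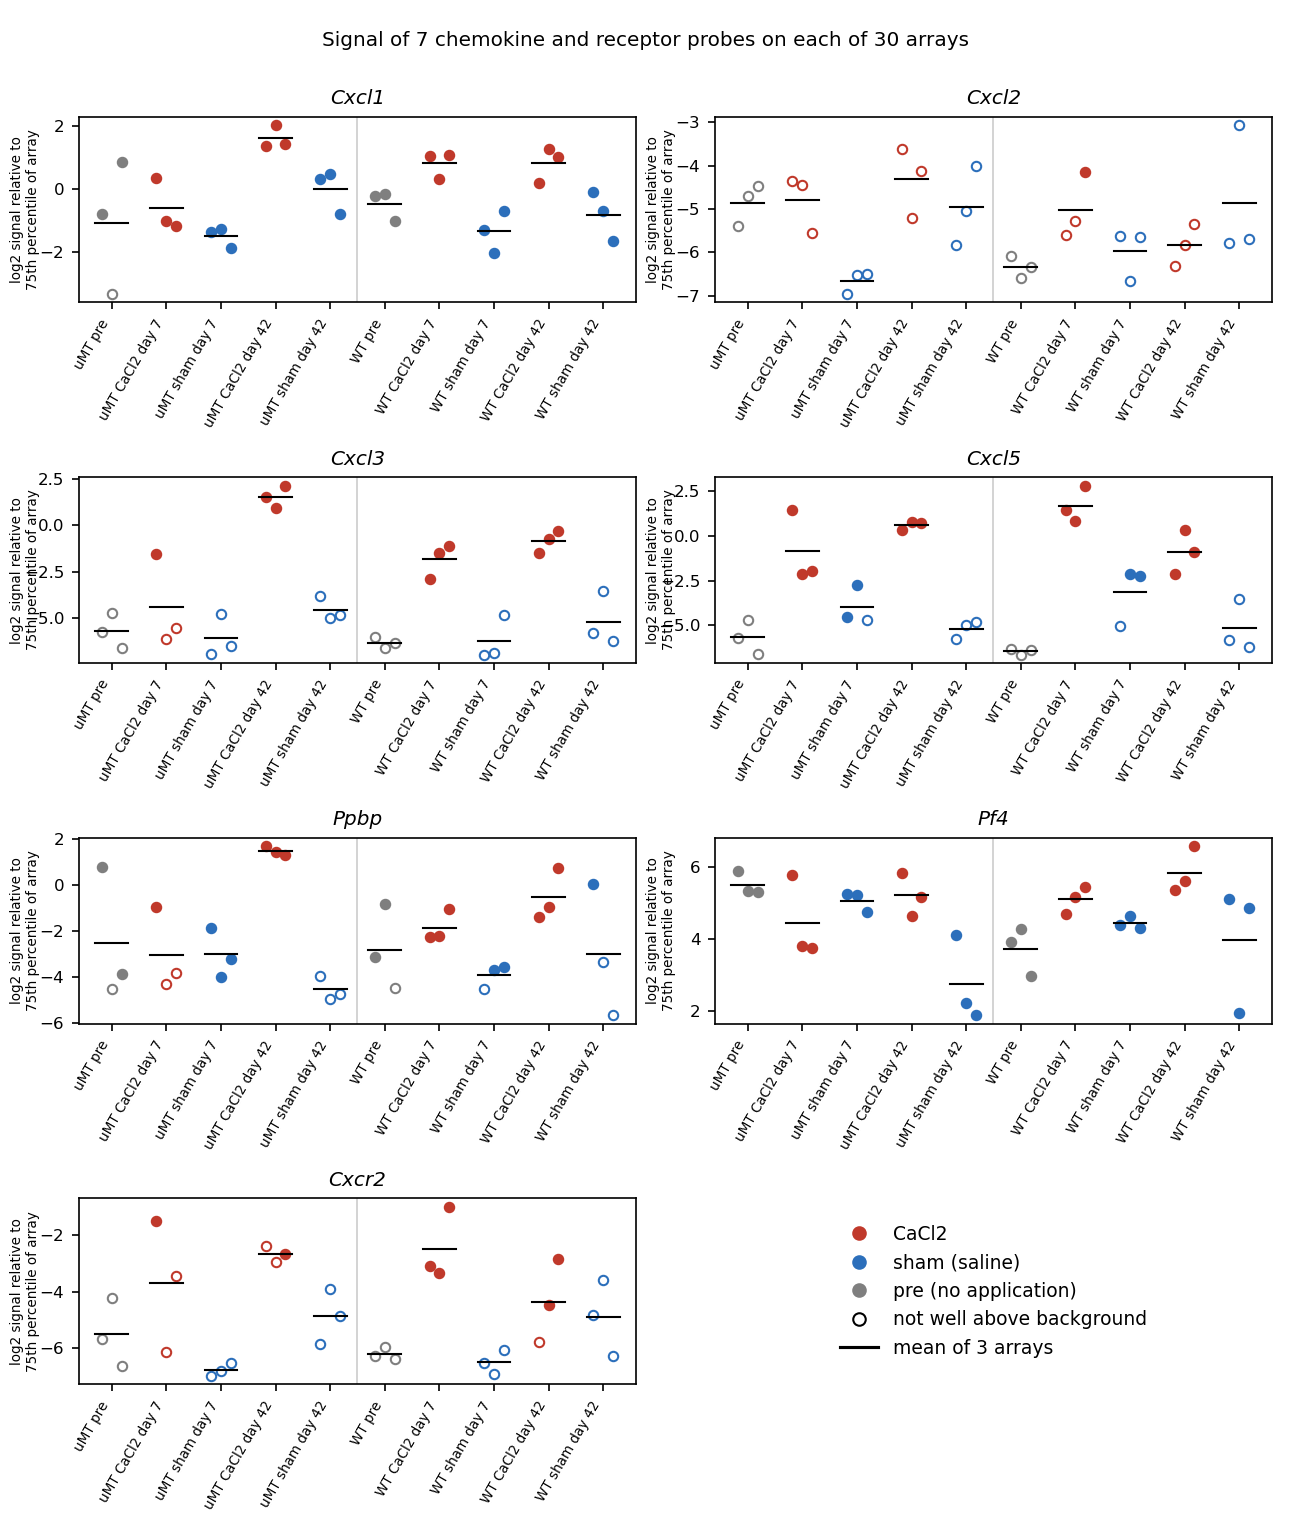
Level of each of 7 probes on each of 30 arrays (y axis, log2 signal over the 75th percentile of its array), by group, with the mean of 3 arrays as a line and open circles where the probe was not well above background. Cxcl3 is filled only in CaCl2 groups, Pf4 is filled on all arrays, and uMT CaCl2 day 7 replicate 1, the leftmost of its group, is the highest of its 3 arrays in the panels of the 6 tested members.

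Cxcl3, an ELR ligand of Cxcr2, was above background on 10 arrays, all of them from CaCl2-treated aortas. In uMT aortas at day 7 after CaCl2 its level was -1.54, -6.13 and -5.57, and only the first of these was above background. At day 42 after CaCl2 it was 1.52, 0.92 and 2.14 in uMT aortas. The day 42 values lay above those of every other group. In WT aortas it was -2.92, -1.47 and -1.11 at day 7 and -1.53, -0.76 and -0.32 at day 42 after CaCl2. Pre and sham arrays held levels between -6.99 and -3.54, none above background, so the fitted differences for Cxcl3 depend on the scanner's value for dim spots. A lower bound was therefore taken against the higher of the probe's own signal and the lowest signal above background on each dim array. By that bound Cxcl3 was at least 24.6-fold higher at day 42 after CaCl2 than after sham in uMT aortas (log2 difference 6.10 ± 0.91 SE, adjusted p = 2.84e-04). In WT aortas it was at least 6.91-fold higher at day 7 (4.42 ± 0.91, adjusted p = 0.00715) and at least 4.61-fold higher at day 42 (4.34 ± 0.91, adjusted p = 0.00395). The uMT difference at day 7, 1.68 ± 0.91, did not pass (adjusted p = 0.390).

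Cxcl5, another ELR ligand of Cxcr2, was above background on all 12 CaCl2 arrays. In uMT aortas at day 7 the levels were 1.47, -2.11 and -1.96 after CaCl2 and -4.52, -2.77 and -4.73 after sham. The ranges did not overlap, and 2 of the 3 sham arrays were above background. The day 42 levels in uMT aortas were 0.35, 0.78 and 0.71 after CaCl2 and -5.78, -5.00 and -4.81 after sham, with no sham array above background. In WT aortas at day 7 they were 1.44, 0.82 and 2.82 after CaCl2 and -5.03, -2.13 and -2.23 after sham. The intensity of 2944 on WT CaCl2 day 7 replicate 3 was the highest of this probe. The day 42 levels in WT aortas were -2.13, 0.35 and -0.88 after CaCl2 and -5.81, -3.51 and -6.23 after sham, with no sham array above background. The difference from sham was 5.81 ± 0.90 in uMT aortas at day 42, at least 13.1-fold (adjusted p = 4.35e-04). It was 4.82 ± 0.90 in WT aortas at day 7 (28.3-fold, adjusted p = 0.00398) and 4.29 ± 0.90 at day 42, at least 4.55-fold (adjusted p = 0.00402). WT sham day 7 replicate 1 was not above background, so the 28.3-fold depends in part on the scanner's value for dim spots. The uMT difference at day 7, 3.14 ± 0.90, had an adjusted p of 0.0905.

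Slides and single arrays bear on these calls. With slide as a random block the WT day 7 differences of Cxcl3 and Cxcl5 were 4.67 and 5.06 with adjusted p = 0.169 and 0.134, and with a fixed block 0.224 and 0.185. With the random block the uMT day 42 differences of Cxcl3 and Cxcl5 were 5.72 and 5.41, and with an adjusted p of 1 neither they nor any other gene was called. A fixed block could not be estimated there. At day 42 in WT aortas the calls were kept with the random block (0.00953 and 0.00955) and the fixed block (0.0222 and 0.0221), and were lost when the compared groups were fitted alone (0.244 and 0.263), where the differences were the same and 0 genes were called. Without the 6 arrays under 50% the uMT day 42 calls of Cxcl3, Cxcl5 and Ppbp were lost (0.215, 0.163 and 0.776), with 1 array left in each group. Under normexp with quantile normalization the Cxcl3 differences were 3.38 in uMT aortas at day 42 and 0.99 and 1.54 in WT aortas at days 7 and 42, all called. On the slide that holds both treatments, the 1 WT sham array of day 42 had -6.25 for Cxcl3 and -6.23 for Cxcl5, below all 3 CaCl2 arrays. Without the array alone on its slide, the random block gave adjusted p = 5.96e-04 and 3.04e-04 at day 7 in WT aortas. Without WT CaCl2 day 7 replicate 3 the Cxcl3 call at day 7 was lost (0.0552). Without WT sham day 42 replicate 2, which is no part of that comparison but enters the pooled spread, the uMT day 7 differences of Cxcl5 and Cxcr2 were called (0.0272 and 0.0328).

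Cxcl1, which encodes the mouse chemokine also named KC, was measured in untreated tissue too, being above background on 29 arrays. In uMT aortas its level at day 7 was 0.36, -1.01 and -1.16 after CaCl2 and -1.36, -1.25 and -1.85 after sham. At day 42 it was 1.39, 2.04 and 1.45 after CaCl2 and 0.34, 0.47 and -0.78 after sham. In WT aortas at day 7 it was 1.07, 0.31 and 1.07 after CaCl2 and -1.28, -2.03 and -0.68 after sham. At day 42 it was 0.19, 1.27 and 1.03 after CaCl2 and -0.10, -0.69 and -1.65 after sham. All 3 CaCl2 arrays exceeded all 3 sham arrays in each of the 4 comparisons, but none passed the adjusted threshold. The differences were 0.88 ± 0.67 and 1.62 ± 0.67 in uMT aortas at days 7 and 42 (adjusted p = 0.580 and 0.175), and 2.14 ± 0.67 and 1.65 ± 0.67 in WT aortas (0.0561 and 0.116). An exact permutation test of 3 against 3 arrays cannot go below p = 0.1, the value found in each. The WT day 7 difference passed in 5 of 21 alternatives, among them without WT sham day 42 replicate 2 (0.0336). The pre arrays of uMT mice spread widely for Cxcl1, with -0.80, -3.31 and 0.86.

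Cxcl2, whose promoter holds the same shared run, was above background only on WT CaCl2 day 7 replicate 3, with an intensity of 23.5. On the other arrays its intensity was at most 14.0, so no difference could be measured for this gene. The same array held the highest signals of Cxcl5 and Cxcr2.

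Cxcr2, the receptor, was above background on 7 arrays, all from CaCl2-treated aortas. In WT aortas at day 7 its level was -3.09, -3.36 and -1.01 after CaCl2, and no sham array was above background, which makes at least 4.41-fold (4.01 ± 0.90, adjusted p = 0.0100). This is the only group on whose 3 arrays Cxcr2 was above background, and so the one through which it was tested. It was above background on 2 of 3 WT CaCl2 arrays at day 42, and the difference of 0.52 ± 0.90 did not pass (0.721) and turned to -0.24 without CaCl2 replicate 3. In uMT aortas it was above background on 1 CaCl2 array at day 7 and 1 at day 42. The uMT differences were 3.06 ± 0.90 (adjusted p = 0.0961) and 2.19 ± 0.90 (0.165). The WT day 7 call was lost with normexp and quantile normalization (0.0509), with slide as a random block (5.04, adjusted p = 0.136) or a fixed block (5.44, 0.172), and without WT CaCl2 day 7 replicate 3 (3.27, 0.0846).

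**Figure D3:**
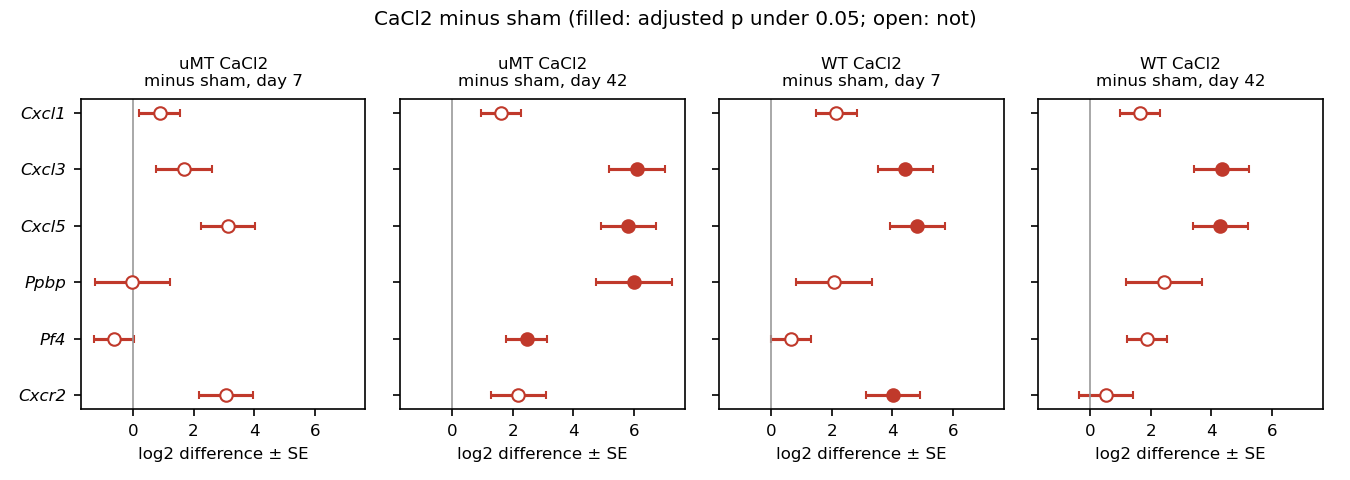
Log2 difference of CaCl2 minus sham (x axis, with SE as bars) for the 6 tested members in uMT and WT aortas at days 7 and 42, filled where the adjusted p was under 0.05. Cxcl3 and Cxcl5 are filled in 3 of the 4 panels, Ppbp and Pf4 in uMT aortas at day 42 and Cxcr2 in WT aortas at day 7.

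Ppbp, which encodes the platelet precursor of an ELR chemokine, was above background on 20 arrays and varied within groups. In uMT aortas at day 42 its level was 1.67, 1.41 and 1.27 after CaCl2, and no sham array was above background (-3.95, -4.95 and -4.74). The difference was 6.00 ± 1.24, at least 23.4-fold (adjusted p = 0.00478). At day 7 in uMT aortas it was -0.97, -4.33 and -3.84 after CaCl2 and -1.86, -4.01 and -3.22 after sham, which overlap (-0.02 ± 1.24, adjusted p = 0.996). In WT aortas at day 7 it was -2.28, -2.22 and -1.07 after CaCl2 and -4.52, -3.72 and -3.55 after sham (2.07 ± 1.24, 0.377). At day 42 it was -1.41, -0.96 and 0.73 after CaCl2 and 0.03, -3.34 and -5.66 after sham (2.44 ± 1.24, 0.201). WT sham day 42 replicate 1 overlapped the CaCl2 arrays, and without it the WT day 42 difference was 3.95 with an adjusted p of 0.0250. Neither of the other sham arrays of that group was above background, so that difference depends on the scanner's value for dim spots. Single high arrays occurred in untreated tissue too, as 0.78 on uMT pre replicate 1 and -0.83 on WT pre replicate 2. The WT day 7 difference was called when the compared groups were fitted alone (0.00885) and, at 7.76, with slide as a fixed block (0.0489). With slide as a random block the uMT day 42 difference was 2.27 (adjusted p = 1).

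Pf4 was above background on all 30 arrays, with levels between 1.90 and 6.57. In uMT aortas at day 42 its level was 5.83, 4.63 and 5.16 after CaCl2 and 4.10, 2.23 and 1.90 after sham. These ranges did not overlap, and the difference of 2.46 ± 0.66 was called (5.51-fold, adjusted p = 0.0260). The sham arrays at 2.23 and 1.90 had 47.8% and 45.8% of probes above background. Without the first of them the adjusted p was 0.110, and without the second 0.170. It was 0.982 without the 6 arrays under 50%, which leaves 1 array in each of these 2 groups, and 13 of 20 alternatives kept the call. In uMT aortas at day 7 the level was 5.77, 3.82 and 3.74 after CaCl2 and 5.24, 5.21 and 4.74 after sham (-0.62 ± 0.66, 0.722). In WT aortas at day 7 it was 4.68, 5.16 and 5.45 after CaCl2 and 4.39, 4.65 and 4.30 after sham (0.65 ± 0.66, 0.653). At day 42 it was 5.35, 5.60 and 6.57 after CaCl2 and 5.11, 1.95 and 4.85 after sham (1.87 ± 0.66, 0.0728). The 1.95 came from the array with 36.5% of probes above background, and without it the WT day 42 difference was 0.86 (0.358). With slide as a fixed block it was 0.98 (0.509).

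Against untreated aorta, Cxcl5 was called in all 4 CaCl2 groups. The CaCl2 groups share the pre arrays of their genotype. Cxcl3, Cxcl5 and Cxcr2 passed the filter only through CaCl2 groups and were above background on no pre array, so the counts against pre are a description too. In uMT aortas 1 of 6 members rose at day 7, Cxcl5 by at least 6.56-fold (4.80 ± 0.90, adjusted p = 0.00116), against 16.1% of all genes. At day 42 in uMT aortas 5 of 6 rose, against 31% of all genes, and Pf4 at -0.30 ± 0.66 was the exception. Cxcl3 differed by 7.24 ± 0.91 there, at least 34.5-fold, and Cxcl5 by 6.29 ± 0.90, at least 18.3-fold. Ppbp differed by 3.99 ± 1.24 (0.0179), Cxcr2 by 2.84 ± 0.90 (0.0192) and Cxcl1 by 2.71 ± 0.67 (0.00455). For Cxcr2 only 1 of these CaCl2 arrays and no pre array was above background, so its difference depends on the scanner's value for dim spots. In WT aortas 3 of 6 rose at day 7, against 20.8% of all genes, with Cxcl5 at 8.14 ± 0.90, at least 66.8-fold (adjusted p = 1.25e-06). The others were Cxcl3 at 4.51 ± 0.91, at least 5.79-fold, and Cxcr2 at 3.73 ± 0.90, at least 3.695-fold. With slide as a fixed block these were 4.93 and 5.16 and not called (0.0968 and 0.0805). At day 42 in WT aortas 3 of 6 rose, against 16% of all genes, Cxcl5 by 5.56 ± 0.90, at least 11.2-fold, Cxcl3 by 5.47 ± 0.91, at least 11.3-fold, and Pf4 by 2.11 ± 0.66 (0.0311). The Pf4 call was lost without WT pre replicate 1 (0.0618) or 3 (0.149), without WT CaCl2 day 42 replicate 2 (0.0589) or 3 (0.155), and with slide as a random (0.170) or fixed (0.219) block. The calls of Ppbp and Cxcr2 at day 42 in uMT aortas held in 15 of 20 and 13 of 19 alternatives, while the WT day 7 call of Cxcl5 held in all 21. With slide as a random block no uMT call against pre was kept (adjusted p of at least 0.968), though Cxcl3 and Cxcl5 differed by 6.77 and 5.81 at day 42. With a fixed block the WT day 42 differences of Cxcl3 and Cxcl5 were 5.90 and 5.97 (0.0633 and 0.0577). Fitted to the compared groups alone, Cxcl5 at day 7 (0.0639) and Cxcl1 at day 42 (0.0640) were not called in uMT aortas, and without the 6 arrays under 50% neither were Cxcl1 (0.197), Ppbp (0.336) and Cxcr2 (0.0735) at day 42, where the CaCl2 group is left with 1 array that is assumed to vary like the other groups.

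Between sham and pre aortas 1 member was called. Of 6 members none was called in uMT sham aortas at day 7, where 2.54% of all genes were, and 1 fell at day 42, where 17.4% were. That member was Pf4, with 4.10, 2.23 and 1.90 at day 42 after sham and 5.89, 5.32 and 5.29 in pre aortas (-2.76 ± 0.66, adjusted p = 0.00866). The call was lost without uMT pre replicate 1 (0.0510), without uMT sham day 42 replicate 2 (0.0612) and without the 6 arrays under 50% (0.181). In WT aortas none was called at day 7 (2.37% of all genes) or day 42 (0.168%). At an unadjusted p under 0.05 there was 1 member in WT sham aortas at day 7, none at day 42 and none in uMT sham aortas at day 7. Cxcl5 in WT sham aortas at day 7 was 3.32 ± 0.90 above pre (adjusted p = 0.0518), with 2 of 3 sham arrays and no pre array above background. At day 42 no sham array of either genotype measured Cxcl5 above background.

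Between days 42 and 7 after CaCl2, Cxcl3 rose in uMT aortas, at day 42 over day 7, by 5.94 ± 0.91 (adjusted p = 0.00169). It was the only one of 6 members called, against 0.971% of all genes, and all 6 arrays lay on 1 slide. The day 42 levels of Cxcl3 lay above all 3 day 7 levels, of which 1 was above background. Fitted to the compared groups alone the difference was not called (0.182), and with slide as a fixed block it was (9.08e-04). In WT aortas none of 6 was called, against 0.554% of all genes, and 2 had an unadjusted p under 0.05. Cxcl5 was -2.58 ± 0.90 there (adjusted p = 0.389), with 3 of 3 day 42 arrays below all day 7 arrays. Cxcl5 in uMT aortas was 1.48 ± 0.90 (0.554), and the difference between the genotypes in this change was not tested.

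No member was called between the genotypes. None of 6 was called in uMT against WT aortas in the pre state (0.0903% of all genes), at day 7 after CaCl2 (0.219%) or sham (0.0172%), or at day 42 after CaCl2 (1.31%) or sham (4.14%). At an unadjusted p under 0.05 the member counts were 1, 3, 0, 1 and 0 in that order. The groups of day 42 after CaCl2 did not overlap for Cxcl3, with 1.52, 0.92 and 2.14 in uMT and -1.53, -0.76 and -0.32 in WT aortas (2.40 ± 0.91, adjusted p = 0.192). They did not overlap for Ppbp (1.997 ± 1.24, 0.427) or Cxcl1 (0.79 ± 0.67, 0.578) either. An exact permutation test gives p = 0.1, its lowest possible value, for any such separation of 3 from 3 arrays. The share of all genes separated in this way was not counted, so the 3 separations are a description. At day 7 after CaCl2 the largest differences were those of Cxcl3 at -2.58 ± 0.91 (0.256) and Cxcl5 at -2.56 ± 0.90 (0.256). The uMT and WT CaCl2 arrays lay on different slides. The CaCl2 response itself, uMT minus WT, differed for no member at day 7 (0% of all genes, 982 of which had an unadjusted p under 0.05) or day 42 (0.107%). The unadjusted member counts were 1 and 0. At day 42 the interaction was 3.55 ± 1.76 for Ppbp (adjusted p = 0.774) and 1.76 ± 1.29 for Cxcl3 (0.775), and at day 7 it was -2.74 ± 1.29 for Cxcl3 (adjusted p = 1). With errors of this size, differences in response of several log2 units were not resolved.

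One array stood apart in the uMT CaCl2 group of day 7. Replicate 1 of uMT CaCl2 day 7 was the highest of its group for the 6 tested members, by 4.31 over the mean of the other 2 arrays for Cxcl3, 3.51 for Cxcl5, 3.29 for Cxcr2, 3.11 for Ppbp, 1.99 for Pf4 and 1.44 for Cxcl1. The share of probes above background was 52.1%, 53.3% and 50.3% on replicates 1, 2 and 3. The calcium-binding neutrophil protein gene S100a9 had 3.56, -1.40 and 0.34 on these arrays, and Il1b had 1.36, -2.34 and -1.15. Csf3r, another neutrophil marker, had 7.76, 7.56 and 8.42 and was highest on replicate 3. The summed linear level of 16 neutrophil markers was 28.9, 7.80 and 9.85 without Csf3r and 245, 196 and 352 with it. The smooth muscle myosin gene Myh11 had 2.75, 5.73 and 6.79, so the array with the most chemokine signal held the least contractile signal. The part of replicate 1 in the results was not tested beyond leaving out each array of this group. With an array of this group left out, 0 to 1 members were called against sham at day 7. Without replicate 2, Cxcr2 was called (adjusted p = 0.0157).

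Among other CXC chemokines, 7 of 9 listed were measured, and none was called at day 7 in uMT or WT aortas. Of all genes, 0.898% and 6.33% were called in uMT aortas at days 7 and 42, and 6.59% and 10.4% in WT aortas. At day 42 after CaCl2, 3 of 7 rose in each genotype. They were Cxcl14, an epithelial and stromal chemokine, by 5.43 ± 0.87 in uMT and 5.08 ± 0.87 in WT aortas, Cxcl16, the membrane-bound ligand of Cxcr6, by 2.39 ± 0.47 and 2.77 ± 0.47, and Cxcl12, the ligand of Cxcr4, by 2.04 ± 0.54 and 2.75 ± 0.54. The median of the 7 was 1.92 in uMT and 1.81 in WT aortas. Of 9 other CXC and atypical receptors, 4 rose at day 42 in each genotype, and at day 7 none rose in uMT and 2 in WT aortas. Those 2 were Cxcr1, the second neutrophil receptor of this family, at least 3.08-fold (1.97 ± 0.52), and Cxcr4 (2.32 ± 0.64). At day 42 the called receptors included Cxcr6, by 2.95 ± 0.44 in uMT and 1.93 ± 0.44 in WT aortas.

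Of the cytokines that induce these chemokines or expand neutrophils, 6 of 12 listed were measured. In uMT aortas 1 rose at day 7 and 4 at day 42, and in WT aortas 2 rose at each time. The shares of all genes called were 0.898% and 6.33% in uMT aortas and 6.59% and 10.4% in WT aortas. Il1b, which encodes interleukin 1 beta, rose in all 4 comparisons, by 3.36 ± 0.81 at day 7 and 6.25 ± 0.81 at day 42 in uMT aortas, and by 4.78 ± 0.81 and 4.42 ± 0.81 in WT aortas. Il6 rose by 3.85 ± 1.07 in uMT aortas at day 42 and by 4.39 ± 1.07 in WT aortas at day 7. For the NF-kappaB response and chemokine mRNA decay 13 genes were measured. Of these, 2 rose in uMT aortas at day 42 (6.33% of all genes called). In WT aortas 1 and 4 rose at days 7 and 42 (6.59% and 10.4%). Nfkbie, an inhibitor of NF-kappaB that the factor itself induces, was among them each time, at 2.08 ± 0.44 in uMT aortas and at 1.85 ± 0.44 and 2.21 ± 0.44 in WT aortas. Of 10 adhesion genes none was called at day 7. At day 42, 4 rose and 2 fell in uMT aortas (6.33% of all genes called). In WT aortas 4 rose and 1 fell at day 42 (10.4%). Among those that rose was the integrin gene Itgal, by 1.67 ± 0.38 in uMT and 1.65 ± 0.38 in WT aortas.

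Some neutrophil markers were called after CaCl2. Of 16 measured, 0 and 8 rose in uMT aortas at days 7 and 42, and 3 and 5 in WT aortas, with 1 lower in WT aortas at day 42. Over all genes the shares called were 0.898% and 6.33% in uMT aortas and 6.59% and 10.4% in WT aortas. S100a8, the partner of S100a9, rose by 4.57 ± 1.13 in uMT and 4.63 ± 1.13 in WT aortas at day 42. Mmp8, neutrophil collagenase, was at least 3.60-fold higher in WT aortas at day 7 (2.65 ± 0.74). The summed level of the 16 genes, on the linear scale with the 75th percentile as 1, was dominated by Csf3r, whose probe was bright on all 30 arrays. Without Csf3r the sum was 7.8 to 28.9 and 24.6 to 36.2 in uMT CaCl2 aortas at days 7 and 42, against 11.9 to 12.1 and 6.2 to 6.9 after sham. In WT aortas it was 18.7 to 53.8 and 20.5 to 48.1 after CaCl2, against 9.3 to 11.3 and 8.8 to 11.9 after sham. With Csf3r it was 196 to 352 and 300.2 to 479 in uMT CaCl2 aortas against 145 to 154 and 261 to 451 after sham, and 228 to 251 and 195 to 267 in WT CaCl2 aortas against 144.5 to 174 and 146 to 1218 after sham. The 1218 came from the array alone on its slide. Pre arrays held 7.8 to 11.7 in uMT and 4.2 to 7.0 in WT aortas without Csf3r. Among the granule genes in the list, Elane, Camp and Lcn2 were above background on 30 arrays, Mpo on 16, Ltf on 14, Ctsg on 10, Prtn3 on 4 and Ngp on 1. The part of the number of neutrophils in the levels of the members was not tested.

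**Figure D4:**
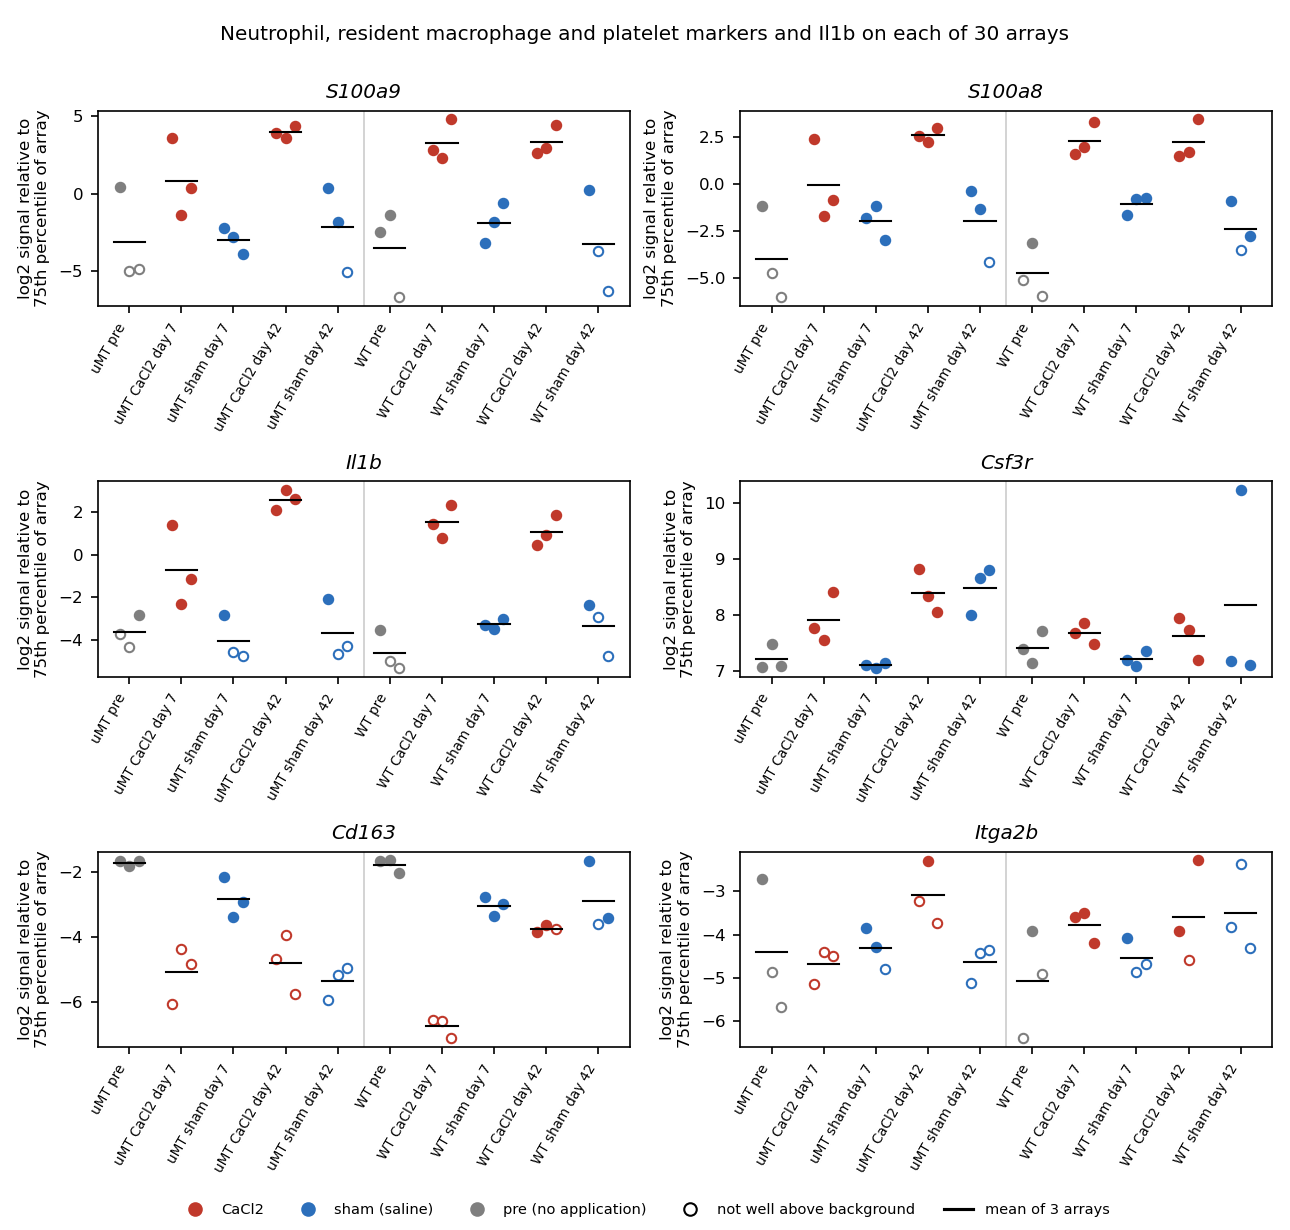
Levels of 5 marker genes and Il1b on each of 30 arrays (y axis, log2 signal over the 75th percentile of its array), by group, with means as lines and open circles where a probe was not well above background. In uMT aortas at day 42 all 3 CaCl2 arrays lie above all 3 sham arrays for S100a9 and Il1b, and Cd163 is below background on all uMT arrays of day 42. The array uMT CaCl2 day 7 replicate 1 stands above its group for S100a9, S100a8 and Il1b, but not for Csf3r.

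Platelet and resident macrophage markers stood beside Ppbp and Pf4. Of 11 measured platelet and megakaryocyte markers, 0 and 2 rose in uMT aortas at days 7 and 42 after CaCl2, and 1 fell at day 42. In WT aortas 1 rose at each time. The shares of all genes called were 0.898% and 6.33% in uMT aortas and 6.59% and 10.4% in WT aortas. Treml1, a platelet granule receptor, rose by 2.19 ± 0.65 in uMT aortas at day 42, and Vwf, which endothelium expresses too, fell by 1.63 on the log2 scale. Tubb1, the platelet tubulin gene, was above background on no array, Gp5 on 1, and Itga2b on 11. The sum of the 11 without Vwf was 24.3 to 33.0 and 13.7 to 23.6 in uMT CaCl2 aortas at days 7 and 42, against 17.9 to 19.3 and 17.1 to 28.0 after sham. In WT aortas it was 19.5 to 29.3 and 9.7 to 35.8 after CaCl2, against 17.6 to 22.1 and 13.8 to 19.0 after sham.

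CaCl2 against sham called 0.898% and 6.33% of all genes in uMT aortas at days 7 and 42, and 6.59% and 10.4% in WT aortas. Of 9 resident macrophage markers, 3 and 2 fell in uMT aortas at days 7 and 42 after CaCl2. In WT aortas 2 fell at day 7 and 1 rose at day 42. Cd163, a haemoglobin scavenger receptor of such cells, was at least 1.95-fold lower at day 7 in uMT aortas (-2.27 ± 0.48) and at least 3.12-fold lower in WT aortas (-3.73 ± 0.48). In uMT sham aortas at day 42, where Pf4 was below its pre level, 6 of the 9 were lower than in pre aortas and none higher. Their median was -2.50, and 17.4% of all genes were called in either direction. In the same comparison 6 of 8 fibroblast markers were lower and none higher, with a median of -1.38 and a sum of 399 to 1012 in uMT sham aortas of day 42 against 1513 to 2144 in uMT pre aortas. On the 2 arrays with the lowest Pf4 of that group, F13a1 was -0.77 and 0.04 and Mrc1, the mannose receptor gene, 0.39 and -0.53, while replicate 1 had 1.76 and 2.66. The sum of the 9 resident macrophage markers was 155 to 283 in that group and 292 to 393 in uMT pre aortas. Within uMT sham day 42 the sum went another way than F13a1 and Mrc1, with 175, 155 and 283 on replicates 1, 2 and 3. Without Cbr2, the brightest of the 9, it was 65.6, 78.5 and 81.7. Replicate 3, which had the lowest Pf4, thus had the highest sum. Of 10 macrophage and monocyte markers, 0 and 6 rose in uMT aortas and 1 and 8 in WT aortas at days 7 and 42 after CaCl2, and of 10 contractile smooth muscle markers 0 and 4 fell in uMT aortas and 9 and 8 in WT aortas. The part of these cells and of array brightness in the Pf4 values was not tested.

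The genes whose levels ran most like each member over the 30 arrays were named among 16020 genes. These r values describe arrays that share slides and brightness. For Cxcl3 they were Cstdc4 (r = 0.934), Csta2 (0.932) and the neutrophil stefin gene Stfa2l1 (0.927), and for Cxcl5 Inava (0.937) and Dclk1 (0.935). Cxcr2 ran most like Tff1 (0.904), Mmp8 (0.900) and Tacr1 (0.896). For Ppbp they were Treml1 (0.805), Lrrn3 (0.801) and S100a9 (0.788), and for Pf4 Clec4b1 (0.906) and Ifnar2 (0.899). Cxcl1 had the values 0.850 with Gprin3, 0.827 with Tspan13 and 0.816 with Cd209c. Among the members, Cxcl3 and Cxcl5 had r = 0.790, Cxcl3 and Cxcr2 0.779 and Cxcl1 and Cxcl3 0.739, while Pf4 and Cxcr2 had 0.175. Tff1, Mmp8 and Tacr1 were above background on 10, 5 and 6 arrays, and the genes named for Cxcl3 on 10 each. The r values of Cxcl3 and Cxcr2 therefore rest largely on values of dim spots, which sit higher on dim arrays. Those of Cxcl5 rest on such values in part. Cxcl5 was above background on 16 arrays, Inava on 15 and Dclk1 on 30.

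By group mean, uMT CaCl2 day 42 was highest for Cxcl1, Cxcl3 and Ppbp, with no overlap with the next group, WT CaCl2 day 42. These groups lay on different slides, with a 75th percentile of 82.3, 141 and 174 in uMT and 278, 338 and 183 in WT. Before centring, the intensities overlapped for Cxcl1 (215 to 580 in uMT, 318 to 816 in WT) and Ppbp (261 to 419 and 105 to 303). Those of Cxcl3 did not (236 to 768 and 96.5 to 199). WT CaCl2 day 7 was highest for Cxcl5, again without overlap with the next, and for Cxcr2, where it overlapped uMT CaCl2 day 42. For Pf4 the WT CaCl2 day 42 group was highest at 5.84 ± 0.64 (SD, n = 3) and overlapped uMT pre at 5.50 ± 0.34. The lowest Pf4 mean was 2.74 ± 1.19 in uMT sham aortas of day 42. Nearly all other neighbours in these orders overlapped in their ranges.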

How the data were processed

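Total RNA of 30 mouse aorta samples was measured on 1-colour Agilent arrays. The authors deposited the scanner's spot intensity values. Per the file headers these came from Feature Extraction 10.7.1.1, while the submitters' processing notes give 9.5.1.1, and probe positions are in build mm9. The processed signal has background subtracted, and dim spots can carry a surrogate value, per the file headers. RNA is described as isolated with RNeasy in the series' design text and with SV Total RNA in the labels' protocols, which is not settled. A table of intensity values that the authors also deposited has columns that hold the same sorted values within 0.1% in all 30 arrays, and it served as an alternative.

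Spots were averaged per probe, 24 flagged probes were left out and 55657 kept. The log2 processed signal was centred on the 75th percentile of each array. Probes well above background on all 3 arrays of at least 1 group were kept (33224), and the brightest stood for its gene (23265 genes). Names came from the RefSeq table by accession (27311 probes), symbol (3523) or synonym (551), and otherwise from the file (24272). One linear model of 10 group means over all arrays (20 residual degrees of freedom) was fitted in limma 3.58.1 (R 4.3.3), and 21 comparisons were taken from it with Benjamini-Hochberg adjustment at 0.05. The code was tested on simulated data. The 7 members and the gene lists were chosen with earlier results of these data known. All 7 members are named, at most 4 genes per list and comparison by smallest adjusted p, and the 3 genes most like each member, of which 2 are not reported here. Further genes named for their array values (S100a9, Il1b, Myh11, Cd163, F13a1, Mrc1, Itga2b, Csf3r) or for how often they were above background (Tubb1, Gp5 and the granule genes) come from the same lists and were chosen after their values were seen. Alternatives covered normalization, filter, probes per gene, samples fitted, slide and replicate blocks, and leaving out arrays. Replicate numbers were not taken as pairs: deviations of samples with the same number had a median r of -0.04 (-0.50 to 0.46).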

Additional observations from a re-analysis of the deposited data

How the results depend on the processing

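The counts of members called kept within 1.5 times of 3 and 2 of 6 in WT aortas (days 7 and 42), 0 and 4 in uMT aortas and 0 for each interaction under 8 settings: normexp with quantile, quantile, another percentile, the authors' table, no filter, single or averaged probes, and the replicate block. Each of these, the replicate block included, gave 3, 2, 0 and 4, with Cxcl1 in place of Cxcr2 at WT day 7 under normexp. No called value changed sign. A filter of 15 arrays, which drops Cxcl3 and Cxcr2 from the tests, gave 1, 1, 0 and 3. The compared groups alone gave 5, 0, 0 and 3. Slide as a random block gave 0, 2, 0 and 0, and as a fixed block 1 and 3 in WT aortas, with no estimate in uMT aortas or for the interactions. The random block without the array alone on its slide gave 4, 2, 2 and 4, where the slide correlation was -0.07 against 0.78 with it. Leaving out the 6 arrays with under 50% of probes above background, chosen after seeing the data, gave 4, 2, 2 and 0. Leaving out 1 array gave 1 to 4 and 2 to 4 in WT aortas, 0 to 2 and 3 to 4 in uMT aortas and 0 for the interactions. The low of 1 came without WT CaCl2 day 7 replicate 3, the 4 at day 42 without WT sham day 42 replicate 1, and the 2 without WT sham day 42 replicate 2. Over all genes, the slide random block called 53 genes in WT aortas at day 7 (1533 without it) and 0 in uMT aortas at day 42 (1473 without it), and the compared groups alone 7848 and, at WT day 42, 0 (2415). The cause was not tested. A probe at background has only a bound, which limits Cxcl2 in all groups, Cxcl3 and Cxcr2 in all pre and sham groups and on some CaCl2 arrays, Cxcl5 in pre and day 42 sham groups, and Ppbp in uMT sham aortas of day 42. Single arrays are limited too, for Cxcl5 in the day 7 sham groups of both genotypes and for Cxcl1 on uMT pre replicate 2. For Ppbp such arrays occur in both pre groups, both WT sham groups and uMT CaCl2 day 7.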
